A study of Rattus norvegicus with 9 samples.

Results

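Plagl1 and 8 other imprinted genes that control growth (Peg3, Grb10, Ndn, Gnas, Dlk1, Mest, Cdkn1c and H19) were followed in mesenchymal stem cells (MSCs) of rat bone marrow, kept for 48 h in SA hydrogels of fast, medium or slow stress relaxation. The genes were taken from the deposited table by name. Of the 9 names, 8 were found, and H19 was not analysed here. They gave 9 of the 33539 rows, because Gnas is listed in 2 overlapping rows. They were chosen by name as imprinted genes, with the levels and log2 differences between the gels in these same libraries known, so the differences between gels are given for them as descriptions with an error and without a test. Each group, Fast, Medium and Slow, had 3 libraries of polyadenylated RNA. The cells of every group were labelled as bone marrow MSCs grown in low glucose DMEM with 10% FBS, and the animals' strain, age and number are not given in the sources used here. Nothing in the labels says that the libraries of a group came from separate cultures or animals, so the spread between them may be technical. The Slow group serves as the reference of 2 of the 3 comparisons and the Fast group enters 2 of them, so the comparisons are not independent of each other.

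An imprinted gene is read mainly from the copy inherited from one parent. A methylation mark that differs between the parental copies is commonly set in the egg or sperm. In mouse, Plagl1, Peg3, Ndn, Dlk1 and Mest are active on the paternal copy. Cdkn1c, H19 and, in most tissues, Grb10 are active on the maternal copy in mouse, and Gnas has several promoters that differ in parental origin. Many of these genes are high in the embryo, fall after birth and act on growth, and in mouse Plagl1 has been placed at the head of a network of imprinted genes. The deposited values do not separate the parental copies, so they report the summed RNA of both.

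The promoters of 4 starts are shown, each of which holds 1 of 2 searched motifs, tied to Plagl1 or to imprinting marks. Those of Plagl1, Peg3 and Grb10 belong to the members with more than 100 counts in a library that differed most between Fast and Slow. The second Gnas start is shown for its motif, while the Dlk1 start also held a motif and is not shown. The sequences come from RefSeq on the GRCr8 build. They run from 250 bases before to 50 bases after the annotated start, 5′ to 3′ on the strand of the gene. Capitals mark GGGGCCCC, a core to which PLAGL1 is known to bind, or TGCCGC in either orientation, the hexamer of the imprint-keeping protein ZFP57 in mouse. Plagl1 lies at chr1:9297214-9297513 on the plus strand, Peg3 at chr1:76130744-76131043 on the plus strand, Grb10 at chr14:90816338-90816637 on the minus strand and the second Gnas start at chr3:183502993-183503292 on the plus strand.
Plagl1: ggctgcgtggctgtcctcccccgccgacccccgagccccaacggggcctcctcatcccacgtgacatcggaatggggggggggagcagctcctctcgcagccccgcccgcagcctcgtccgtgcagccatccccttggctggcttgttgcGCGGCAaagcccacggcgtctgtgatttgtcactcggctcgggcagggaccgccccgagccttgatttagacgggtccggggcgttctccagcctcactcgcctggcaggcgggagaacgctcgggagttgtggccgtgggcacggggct
Peg3: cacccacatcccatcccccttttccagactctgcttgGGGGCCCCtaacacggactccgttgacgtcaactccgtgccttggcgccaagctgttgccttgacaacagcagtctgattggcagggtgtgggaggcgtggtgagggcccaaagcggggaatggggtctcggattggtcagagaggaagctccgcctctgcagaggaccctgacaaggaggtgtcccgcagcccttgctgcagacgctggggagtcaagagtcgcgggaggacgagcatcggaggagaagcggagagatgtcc
Grb10: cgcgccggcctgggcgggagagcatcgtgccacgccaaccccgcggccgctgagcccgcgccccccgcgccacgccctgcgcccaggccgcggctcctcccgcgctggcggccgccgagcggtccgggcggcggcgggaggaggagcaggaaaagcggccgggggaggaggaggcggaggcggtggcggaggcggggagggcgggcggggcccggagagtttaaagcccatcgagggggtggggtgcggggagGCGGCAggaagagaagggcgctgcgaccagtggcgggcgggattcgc
Gnas second start: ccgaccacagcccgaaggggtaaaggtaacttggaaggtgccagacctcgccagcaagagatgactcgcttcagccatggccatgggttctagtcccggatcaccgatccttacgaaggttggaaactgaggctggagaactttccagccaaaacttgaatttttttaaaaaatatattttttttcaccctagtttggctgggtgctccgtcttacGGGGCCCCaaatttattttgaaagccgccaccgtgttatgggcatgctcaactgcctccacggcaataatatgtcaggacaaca
The palindrome GGGGCCCC stood once in the Peg3 promoter, at position -213 from the start, and once before the second Gnas start, at position -34. Among all 33469 promoters of the same length, 0.858% held it. TGCCGC stood at position -100 of the Plagl1 promoter as its reverse complement, and once each in those of Grb10 and Dlk1, against 11.7% of all promoters on both strands. Promoters were found for 7 of the 9 names and gave 9 starts, of which 2 held GGGGCCCC and 3 held TGCCGC. The GC content was 70.7% for Plagl1, 62.3% for Peg3, 79.7% for Grb10 and 49.0% for the second Gnas start, with a median of 51.7% over all promoters. The Grb10 window held 44 CpG pairs and the Plagl1 window 29. A match of letters is a description of the window and not a bound site. The shares over all promoters were not matched for GC content, so no enrichment of either motif can be read from these counts.

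Plagl1 encodes a zinc finger transcription factor that restrains the cell cycle and binds GC-rich DNA. The 3 Fast libraries held 668, 629 and 609 of its counts, the Medium libraries 93, 101 and 116, and the Slow libraries 58, 52 and 54. As CPM (counts scaled to library size with TMM factors), its level was 43.5, 39.3 and 41.2 in the Fast libraries, 6.34, 6.85 and 8.31 in those of Medium and 4.13, 3.37 and 3.74 in those of Slow. Every Fast library was above every Medium library, and every Medium library above every Slow library. The means were 41.3 ± 2.1, 7.17 ± 1.02 and 3.75 ± 0.380 CPM (SD, n = 3). The log2 difference was 3.46 ± 0.11 (SE) for Fast minus Slow, which is 11-fold. It was 2.53 ± 0.10 for Fast minus Medium (5.77-fold) and 0.93 ± 0.13 for Medium minus Slow (1.91-fold). On the log2 scale the Medium gel stood at 27.0% of the way from Slow to Fast. Ranked from the highest log2 difference among the 14406 tested genes, Plagl1 was 26th for Fast against Slow, 35th for Fast against Medium and 202nd for Medium against Slow. The deposited table places the gene (ENSRNOG00000025587) on chromosome 1 from 7252349 to 7259035 on the plus strand.

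**Figure D1:**
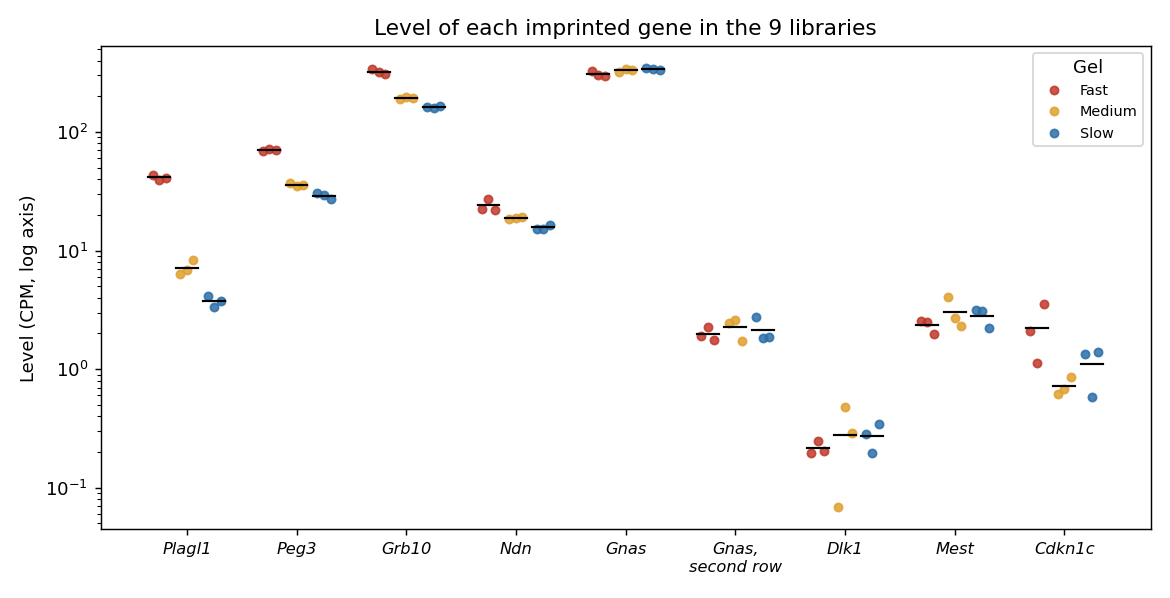
Level of each imprinted gene in CPM on a log axis, with a point for each of the 9 libraries coloured by gel and a bar at the mean of the 3 libraries. Plagl1, Peg3, Grb10 and Ndn step down from Fast to Medium to Slow without overlap, Gnas stays between 293.9 and 346.5 CPM, and the second Gnas row, Dlk1, Mest and Cdkn1c lie low and overlap in most pairs of gels.

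Peg3, which encodes a large zinc finger protein that represses transcription and acts in growth and stem cells, had the next widest separation of the gels among the members with more than 100 counts in a library. Its level was 68.6, 71.4 and 70.1 CPM in the Fast libraries, 37.3, 34.8 and 35.4 in those of Medium and 30.6, 29.6 and 27.0 in those of Slow. The groups did not overlap, and the Medium libraries lay nearer to Slow. The log2 difference was 1.27 ± 0.059 for Fast minus Slow, 0.97 ± 0.057 for Fast minus Medium and 0.30 ± 0.061 for Medium minus Slow. The Medium gel stood at 23.7% of the log2 distance. Peg3 (ENSRNOG00000014791) is listed on chromosome 1 from 70222964 to 70237443 on the plus strand.

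Grb10 encodes an adaptor that binds the insulin and IGF1 receptors and dampens their signal. Its level was 341.7, 318.7 and 308.1 CPM in the Fast libraries, 188.6, 197.5 and 194.3 in those of Medium and 161.5, 158.2 and 164.3 in those of Slow. The Fast libraries stood apart at the top, and the Medium libraries all lay above the Slow ones. The difference was 1.00 ± 0.040 on the log2 scale for Fast minus Slow, a doubling, 0.74 ± 0.040 for Fast minus Medium and 0.26 ± 0.041 for Medium minus Slow. The Medium gel stood at 26.2% of the log2 distance, close to the positions of Plagl1 and Peg3. Grb10 (ENSRNOG00000004290) is listed on chromosome 14 from 92021851 to 92117923 on the minus strand.

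Ndn encodes necdin, a MAGE family protein that restrains proliferation and binds E2F factors. Its level was 22.6, 27.3 and 22.2 CPM in the Fast libraries, 18.4, 18.8 and 19.1 in those of Medium and 15.3, 15.3 and 16.5 in those of Slow. The groups did not overlap, with smaller steps than those of Grb10 and more spread among the Fast libraries (24.0 ± 2.82 CPM). The log2 difference was 0.61 ± 0.089 for Fast minus Slow, 0.36 ± 0.088 for Fast minus Medium and 0.26 ± 0.091 for Medium minus Slow. The Medium gel stood at 41.7% of the log2 distance. Ndn (ENSRNOG00000010146) is listed on chromosome 1 from 122981755 to 122983351 on the plus strand.

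Gnas encodes the stimulatory G protein subunit that couples receptors to adenylyl cyclase, and it went slightly the other way. The main row (ENSRNOG00000047374, chromosome 3 from 172385672 to 172434613) had 324.5, 301.7 and 293.9 CPM in the Fast libraries, 318.4, 340.3 and 331.3 in those of Medium and 346.5, 342.0 and 333.1 in those of Slow. The Fast libraries were all below the Slow ones, while Medium overlapped both. The log2 difference was -0.15 ± 0.039 for Fast minus Slow, -0.11 ± 0.039 for Fast minus Medium and -0.05 ± 0.039 for Medium minus Slow. Scaled by library size alone, the Fast minus Slow difference was -0.07. The second row (ENSRNOG00000025889, chromosome 3 from 172374957 to 172428483) overlaps the main row on the plus strand and had 24 to 39 counts in each library. Its libraries overlapped in every pair of gels, and its log2 differences lay between -0.19 and 0.07 with an SE of 0.27. How the authors' counting divided reads between these rows is not given, so their values are uncertain to that extent.

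The other 3 found genes had few counts, and counting error limits what can be seen of them. Mest, which encodes a hydrolase-like protein named for its expression in mesoderm, had 29 to 40 counts in Fast, 32 to 60 in Medium and 32 to 48 in Slow. The gels overlapped in every pair, with log2 differences of -0.27 ± 0.26 for Fast minus Slow and 0.10 ± 0.26 for Medium minus Slow. Dlk1, which encodes a membrane protein that inhibits fat cell formation, had 3, 4 and 3 counts in the Fast libraries, 1, 7 and 4 in those of Medium and 4, 3 and 5 in those of Slow. With 34 counts in all it was below the filter on low counts and was given no difference. Mest (ENSRNOG00000048088) is listed on chromosome 4 from 58053041 to 58063138 and Dlk1 (ENSRNOG00000019584) on chromosome 6 from 133552821 to 133583751, both on the plus strand.

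Cdkn1c encodes p57, an inhibitor of cyclin-dependent kinases. It had 32, 18 and 52 counts in the Fast libraries, 9, 10 and 12 in those of Medium and 19, 9 and 20 in those of Slow. Each Fast library was above each Medium library, and Slow overlapped both. The mean was lower in Medium than in Slow, but with this overlap the order of Medium and Slow was not resolved. The log2 difference was 1.63 ± 0.45 for Fast minus Medium, 1.01 ± 0.42 for Fast minus Slow and -0.62 ± 0.48 for Medium minus Slow. Fast replicate 3 held the most counts, and without it the Fast minus Medium difference was 1.15 and the Fast minus Slow difference 0.54. Cdkn1c (ENSRNOG00000059500) is listed on chromosome 1 from 216661080 to 216663721 on the minus strand.

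The following counts depend on how the genes were picked, are given only as an account of the members and are no test of them. In the fit over all genes, 4 of the 8 member rows past the low count filter were under an edgeR adjusted p of 0.05 as higher in Fast than in Slow and 1 as lower, where 42.9% of all tested genes passed in either direction (21.2% higher, 21.7% lower). For Medium against Slow, 3 were higher and 0 lower, against 10.3% of all genes (4.74% higher, 5.57% lower). By edgeR at an unadjusted p under 0.05, DESeq2 or limma, 0 were lower as well. For Fast against Medium, 5 were higher and 1 lower, against 33.0% of all genes (15.6% higher, 17.3% lower). The libraries did not overlap in 5 of the 8 rows for Fast against Slow, in 4 for Medium against Slow and in 5 for Fast against Medium, where this held for 51.7%, 29.5% and 44.6% of all tested genes. The median log2 difference of the 8 rows was 0.81, 0.18 and 0.55 in the same order, beside 0.0078, 0.0036 and 0.0092 over all tested genes.

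Per length, as FPKM, the order of the levels changed from gel to gel mainly through Plagl1. In Fast the order was Gnas at 86.3 FPKM, Grb10 at 61.5, Ndn at 14.9, Plagl1 at 8.85, Peg3 at 8.25, Mest at 2.32, the second Gnas row at 1.19, Cdkn1c at 1.09 and Dlk1 at 0.134. The Fast libraries of Plagl1 and Peg3 overlapped in FPKM, as did those of the second Gnas row and Cdkn1c, and the other neighbours in the order did not. In Medium, Plagl1 stood sixth at 1.54 FPKM, behind Mest at 3.02, and overlapped the second Gnas row at 1.37. In Slow it stood seventh at 0.805 FPKM, below the second Gnas row at 1.31 and above Cdkn1c at 0.540. The summed CPM of the 9 rows was 742.9 to 807.6 in Fast, 576.3 to 604.7 in Medium and 550.5 to 565.5 in Slow. Grb10 made up 41.8% of that sum in Fast and 29.0% in Slow, while Gnas made up 39.8% and 61.2%.

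A wider list of 42 other imprinted genes was counted in the same way. Of these names 35 were found and 23 passed the filter on low counts. For Fast against Slow, 6 rose, 4 fell and 13 did not pass (43.5% called, against 42.9% of all tested genes), with a median log2 difference of 0.06. For Medium against Slow, 0 rose and 2 fell (8.70% against 10.3%), with a median of -0.05. DESeq2 and limma also called 0 higher there, and 2 were higher by edgeR at an unadjusted p under 0.05. For Fast against Medium, 5 rose and 2 fell (30.4% against 33.0%), with a median of 0.07. The share of imprinted genes called lay close to the share of all genes in each comparison.

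Zim1, a zinc finger gene that lies beside Peg3, had 40, 37 and 30 counts in the Fast libraries, 13, 6 and 16 in those of Medium and 5, 8 and 7 in those of Slow. It rose by 2.33 ± 0.38 on the log2 scale in Fast over Slow (edgeR adjusted p = 0.000174) and by 1.51 ± 0.35 in Fast over Medium (adjusted p = 0.00405). On log2(FPKM + 1) values, which understate changes of low genes, the Fast minus Slow difference was 0.61. Slc22a18, an organic cation transporter gene of the Cdkn1c cluster, rose from 13.5 ± 0.179 to 20.1 ± 1.39 CPM (log2 0.58 ± 0.089, edgeR adjusted p = 0.000102). The amino acid transporter gene Slc38a4 rose by 0.42 ± 0.10 (edgeR adjusted p = 0.00382). In the other direction, Dcn, which encodes the matrix proteoglycan decorin, was at 802 ± 20.1 CPM in Slow, 614 ± 6.96 in Medium and 588 ± 44.9 in Fast (SD, n = 3). It fell by 0.45 ± 0.042 in Fast and by 0.39 ± 0.042 in Medium against Slow (edgeR adjusted p = 7.16e-07 and 2.41e-05). Igf2r, the receptor that clears IGF2, fell by 0.10 ± 0.024 in Medium against Slow (edgeR adjusted p = 0.0122, and 0.0715 without Medium replicate 3). Igf2, its growth factor ligand and the gene whose cluster holds H19, had 6 to 18 counts per library and did not pass for Fast against Slow (edgeR adjusted p = 0.795).

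In Fast against Medium the other called genes of this list with the smallest adjusted p were Slc22a18 at 0.46 (edgeR adjusted p = 0.000959), the sarcoglycan gene Sgce at 0.29 (0.016) and, in the other direction, Phlda2, a gene that restrains placental growth in mouse, at -1.35 ± 0.43 (0.0261). Without Medium replicate 3 the adjusted p of Sgce was 0.0856, and without Medium replicate 1 that of Phlda2 was 0.138. Some of the weaker calls for Fast against Slow were lost under other settings. Ube3a and Blcap were not called when scaled by library size alone (edgeR adjusted p = 0.189 and 0.137), and Peg12 was not called without Slow replicate 3 (adjusted p = 0.110).

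**Figure D2:**
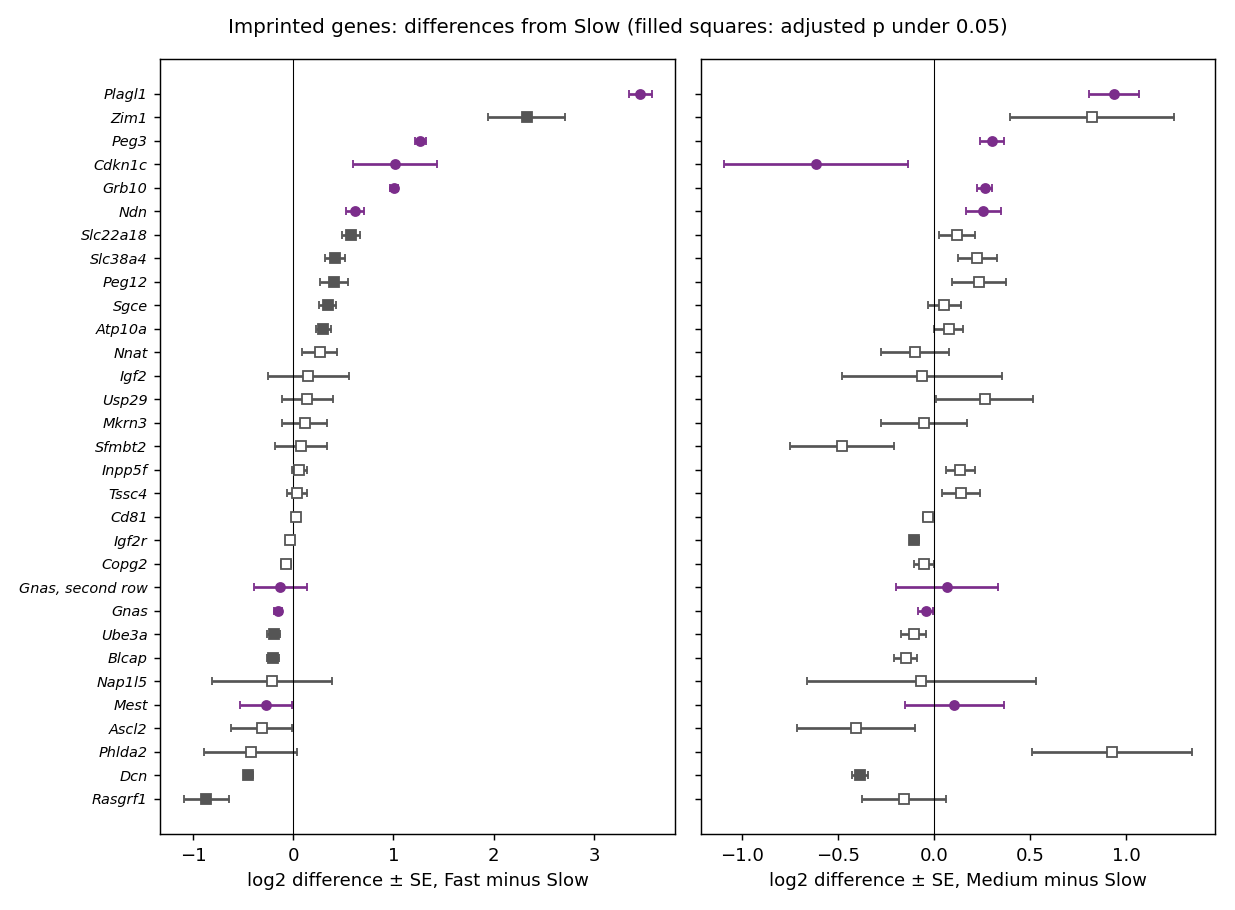
Log2 difference with its SE (horizontal bars) for the tested imprinted genes, Fast minus Slow on the left and Medium minus Slow on the right, on different axis ranges. Purple circles are the chosen genes, given without a test, and squares are the other imprinted genes, filled where the edgeR adjusted p was under 0.05; Plagl1 lies furthest right at 3.46 in the left panel, and the other imprinted genes spread to both sides of 0.

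Genes tied to Plagl1 were taken as a list of 10, its family members Plag1 and Plagl2 and reported partners and targets. Of the 10, 4 rose and 3 fell in Fast against Slow (70.0% called against 42.9% of all genes, median log2 difference 0.01). For Medium against Slow, 0 rose and 1 fell (10% against 10.3%), and for Fast against Medium 3 rose and 3 fell (60% against 33.0%). The cell cycle inhibitor gene Cdkn1a, a reported target, had 355 ± 5.15 CPM in the Slow gel, 257 ± 4.78 in the Medium gel and 200 ± 8.57 in the Fast gel. It fell by 0.83 ± 0.035 in Fast against Slow (edgeR adjusted p = 7.26e-11) and by 0.47 in Medium against Slow (adjusted p = 5.25e-07), opposite to Plagl1. Adcyap1r1, the receptor of the peptide PACAP and a reported Plagl1 target, fell by 0.84 ± 0.069 (edgeR adjusted p = 1.58e-07). The related zinc finger gene Plag1 rose from 5.67 to 9.69 CPM (log2 0.77 ± 0.14, edgeR adjusted p = 0.000332), whereas Plagl2 had a log2 difference of -0.20 ± 0.11 (adjusted p = 0.159). The transcription factor gene Tcf4 rose by 0.48 ± 0.091 (edgeR adjusted p = 0.000674). In the Fast against Medium comparison, Plag1 rose by 0.65, while Adcyap1r1 fell by 0.73 (edgeR adjusted p = 0.00177 and 1.2e-06).

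Grb10 acts on the insulin and IGF receptors, and 14 tested genes of that pathway were set beside it. In Fast against Slow 3 rose and 6 fell (64.3% called against 42.9% of all genes). For Medium against Slow, 0 rose and 2 fell (14.3% against 10.3%), and for Fast against Medium 3 rose and 5 fell (57.1% against 33.0%). Grb14, the close relative of Grb10, rose from 20.6 ± 1.87 to 34.5 ± 2.08 CPM (log2 0.75 ± 0.077, edgeR adjusted p = 1.81e-06). The ligand gene Igf1 rose from 2.83 ± 0.532 to 10.8 ± 2.48 CPM (log2 1.93 ± 0.22, edgeR adjusted p = 4.68e-06). The docking protein gene Irs2 fell by 0.64 ± 0.046 and the transcription factor gene Foxo1 by 0.84 ± 0.12 (edgeR adjusted p = 3.28e-08 and 3.4e-05). In Medium against Slow, the receptor gene Igf1r fell by 0.19 ± 0.047 and Pik3r1, a regulatory subunit of PI3 kinase, by 0.29 ± 0.062 (edgeR adjusted p = 0.0209 and 0.00674). Without Medium replicate 1 the adjusted p of Igf1r was 0.0988. For Fast against Medium, Irs2 fell by 0.55 and Foxo1 by 0.71, while Grb14 rose by 0.65 and Igf1 by 1.47 (edgeR adjusted p = 2.8e-07, 0.000258, 1.02e-05 and 7.26e-05).

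Beside Gnas, 19 genes of Gs and cAMP signalling were tested, and 5 rose and 8 fell in Fast against Slow (68.4% called against 42.9%). In Medium against Slow 2 rose and 4 fell (31.6% against 10.3% of all genes). For Fast against Medium, 6 rose and 4 fell (52.6% against 33.0%). Pth1r, the parathyroid hormone receptor that signals through the Gnas product, had 16.5 ± 0.812 CPM in Slow gels, 23.4 ± 2.1 in Medium gels and 33.0 ± 2.22 in Fast gels, a rise of 1.00 ± 0.083 in Fast against Slow (edgeR adjusted p = 1.82e-07). The G protein beta gene Gnb1 fell by 0.31 ± 0.030, and the adenylyl cyclase genes Adcy6 and Adcy7 by 0.40 ± 0.042 and 0.40 ± 0.047 (edgeR adjusted p = 1.06e-06, 2.11e-06 and 5.97e-06). In Medium against Slow, the cyclase gene Adcy4 rose by 0.36 ± 0.054, while the phosphodiesterase gene Pde4b fell by 0.40 ± 0.054 and the adenosine receptor gene Adora2b by 0.75 ± 0.13 (edgeR adjusted p = 0.000446, 0.000187 and 0.00138). Pth1r rose there as well, by 0.50 ± 0.086 (edgeR adjusted p = 0.00133). For Fast against Medium, Prkar2b, a regulatory subunit of protein kinase A, rose by 0.49 ± 0.062 (edgeR adjusted p = 2.06e-05), while Adcy7, Adcy6 and Adcy4 fell by 0.38, 0.33 and 0.42 (edgeR adjusted p = 1.43e-05, 2.25e-05 and 2.62e-05).

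Cdkn1c and Plagl1 both bear on entry into the cell cycle, and 13 CDK inhibitors, D cyclins and their kinases were tested. In Fast against Slow 4 rose and 3 fell (53.8% called against 42.9% of all genes). For Medium against Slow, 0 rose and 1 fell (7.69% against 10.3%), and for Fast against Medium 5 rose and 3 fell (61.5% against 33.0%). For Medium against Slow, DESeq2 and limma called 0 genes higher in this list, the insulin list and the list tied to Plagl1, where edgeR at an unadjusted p under 0.05 gave 3, 1 and 2. The inhibitors did not move together. Cdkn2a rose by 1.28 ± 0.15, from 4.48 to 10.8 CPM, and Cdkn2b by 0.61 ± 0.063 (edgeR adjusted p = 7.07e-06 and 1.96e-06), while Cdkn1a fell as given above. The kinase gene Cdk4 rose by 0.30 ± 0.043 (edgeR adjusted p = 4.27e-05). In Fast against Medium, Cdkn2b rose by 0.50 and Cdkn2a by 0.92, while Cdkn1a fell by 0.37 and the cyclin D1 gene Ccnd1 by 0.20 (edgeR adjusted p = 2.16e-05, 0.000191, 1.28e-06 and 0.000231).

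The 8 genes with a profile over the 9 libraries nearest to that of Plagl1 were Akr1c14, Fat3, Spon1, Plac8, Clec4a3, Sned1, Sepp1 and Clec4a1, in that order, among 11494 genes with a mean of at least 50 counts. Likeness was the Euclidean distance between log2 CPM values centred on each gene's mean, and it ran from 0.603 for Akr1c14 to 1.07 for Clec4a1. Pearson's r with Plagl1 over the 9 libraries ran from 0.975 to 0.997. It is a description, since the libraries fall into 3 gels and the genes were picked for nearness in these same libraries. Akr1c14, an aldo-keto reductase gene, had means of 92.2 ± 1.95, 14.2 ± 1.5 and 6.35 ± 1.08 CPM in the Fast, Medium and Slow gels. Sepp1, which encodes the selenium carrier selenoprotein P, was at 35.8 ± 0.350, 9.34 ± 0.931 and 5.26 ± 0.752 CPM. Fat3 encodes a large cadherin, Spon1 and Sned1 encode extracellular matrix glycoproteins, and Clec4a1 and Clec4a3 encode lectin receptors of myeloid cells. The log2 differences of the 8 genes lay between 2.77 and 3.95 for Fast minus Slow and between 0.83 and 1.37 for Medium minus Slow.

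**Figure D3:**
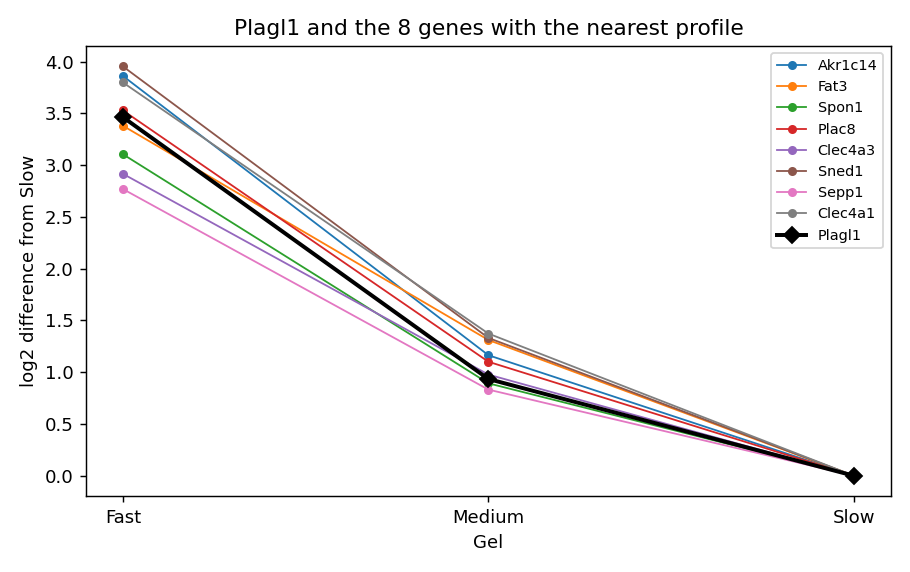
Log2 difference from Slow on the vertical axis for each gel, with a line for each gene; Plagl1 is the black line with diamonds and the 8 genes of nearest profile are coloured. Plagl1 stands at 3.46 in Fast and 0.93 in Medium, within the span of the 8 genes at both gels, which were picked as nearest in these same libraries.

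Imprinted genes lie in clusters, so the genes within 500 kb of each tested member were also listed, and those named here were chosen after their values were seen. Of 53 such genes tested, 14 rose and 10 fell in Fast against Slow, with a median log2 difference of 0.04. These counts lay close to the share of all tested genes, of which 42.9% were called. Around Plagl1, 3 of 9 rose and 3 fell. Phactr2, 96 kb after Plagl1, rose from 4.04 ± 0.652 to 9.26 ± 1.86 CPM (log2 1.19 ± 0.19, edgeR adjusted p = 0.000136). Ltv1, 64 kb after it, rose by 0.32 ± 0.075 (edgeR adjusted p = 0.00303), and Fuca2, 400 kb after it, rose by 0.78 ± 0.064 (edgeR adjusted p = 1.4e-07). On the other side, Utrn, 282 kb before it, fell by 0.74 ± 0.040 (edgeR adjusted p = 1.65e-09), and Sf3b5, 150 kb before it, had a log2 difference of 0.06 (adjusted p = 0.471). Phactr2 had the highest value of these 9 neighbours, below the 3.46 of Plagl1. Around Peg3, 4 of 8 rose and 0 fell, beside 21.2% and 21.7% of all tested genes. By DESeq2 and by limma 3 were higher, and 0 were lower by either or by edgeR at an unadjusted p under 0.05. Zim1 lay 16 kb after Peg3, while Usp29, another imprinted gene of the cluster, had a log2 difference of 0.14 (edgeR adjusted p = 0.692). Hiat1, 402 kb before Peg3, had the largest difference there, 3.62 ± 0.96, and its Fast libraries spread widely (4.05 ± 3.03 CPM), so its value is uncertain.

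**Figure D4:**
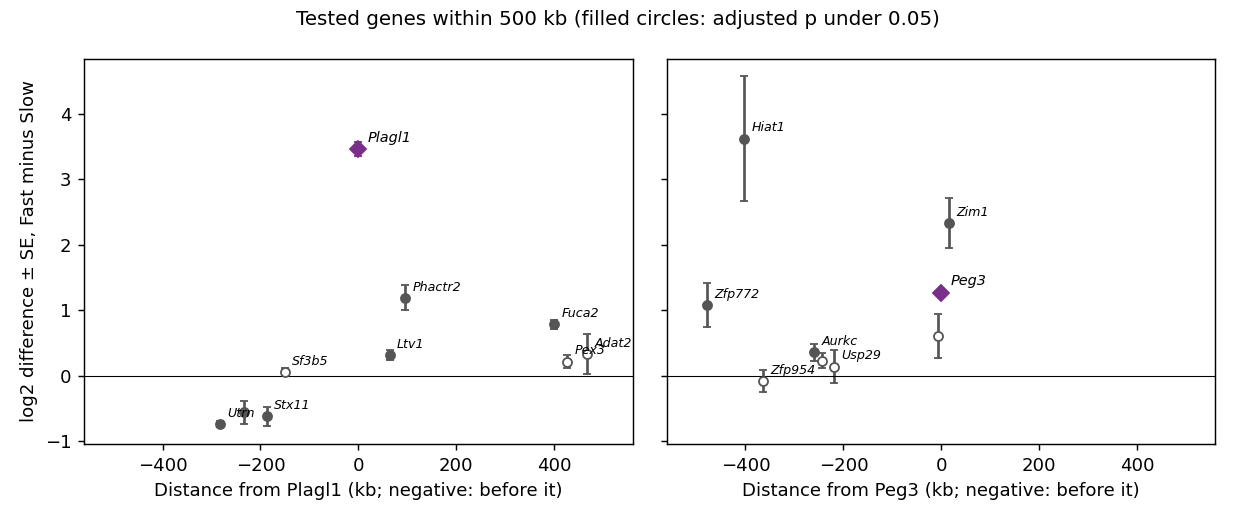
Log2 difference with its SE, Fast minus Slow, on the vertical axis against distance in kb from Plagl1 (left) and Peg3 (right) for the tested genes within 500 kb; diamonds are Plagl1 and Peg3, and circles are filled where the edgeR adjusted p was under 0.05. Plagl1 at 3.46 stands above its 9 neighbours, and beside Peg3 at 1.27 only Zim1 at 2.33 and Hiat1 at 3.62 are higher.

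Markers of other cells differed between the gels alongside Plagl1. All 12 myeloid markers on the list were detected and tested, and in Fast against Slow 9 rose and 2 fell, in Medium against Slow 6 rose and 0 fell (1 lower by edgeR at an unadjusted p under 0.05, 0 by DESeq2 and limma), and in Fast against Medium 9 rose and 1 fell. The share called was 91.7%, 50% and 83.3% in these comparisons, beside 42.9%, 10.3% and 33.0% of all tested genes. Lyz2, which encodes lysozyme, rose by 1.48 ± 0.034 in Fast against Slow (edgeR adjusted p = 1.2e-13), and Aif1, a macrophage calcium-binding protein gene, by 1.64 ± 0.080 (edgeR adjusted p = 4.35e-10). The 2 that fell there were Cd14 and Itgam (edgeR adjusted p = 6.73e-06 and 0.000557), and Ptprc was not called (adjusted p = 0.904). The 12 markers had a summed level of 2801 to 2951 CPM in Fast, 1922 to 1942 in Medium and 1645 to 1707 in Slow, with Adgre1, which encodes the macrophage protein F4/80, at 614, 406 and 292 CPM. None of these markers was at 0 in any gel. The 10 stromal markers summed to 21100 to 24500 CPM in Fast, 16710 to 17620 in Medium and 14850 to 15460 in Slow, and 4 rose and 3 fell in Fast against Slow (1 and 3 in Medium against Slow, 4 and 2 in Fast against Medium). That is 70.0%, 40.0% and 60.0% of the stromal list, beside the shares of all tested genes given above. The median log2 difference of the list was 0.05, -0.08 and 0.10 in the same order. A sum follows the markers of highest level, so its rise was not shared by the list as a whole. Among the stromal markers Pdgfra rose by 0.93 ± 0.030 and Nt5e, which encodes CD73, fell by 1.65 ± 0.039 in Fast against Slow (edgeR adjusted p = 4.24e-12 and 1.51e-13). All 10 passed the filter on low counts, so RNA of each was detected, which does not by itself establish the cell type. The adipocyte markers summed to between 37.3 and 49.7 CPM over the 9 libraries and the endothelial markers to between 11.5 and 16.6, with 2 of each list tested. The 4 lymphocyte markers summed to at most 2.41 CPM, and only 1 of them, Cd2, was tested. Cd2 rose by 1.54 ± 0.39 in Fast against Slow (edgeR adjusted p = 0.00536). The erythroid markers Hba1 and Hbb were at 0 in all 9 libraries. In bulk RNA, fewer cells of a type and less RNA per cell cannot be told apart, and the part of the myeloid and stromal markers in the values of Plagl1 and the other members was not tested. Depth was alike, with 14128980 to 15779328 counts per library, and the counts of any pair of libraries of 1 gel varied beyond counting error (chi-square divided by its degrees of freedom, 2.77 to 6.18).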

How the data were processed

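Messenger RNA of 9 libraries (3 per gel) was measured, per the labels, from a single-cell library kit of QIAGEN. The authors deposited a whole-number read count and an FPKM value per gene and library, and for genes with at least 20 counts the latter was the count over gene length and a constant of the library. The authors deposited a log2 fold change and a p-value for each pair of gels as well. Bowtie 0.12.9, Cufflinks 2.1.1, HTSeq and the build mm10 are named in the submitters' processing notes. Since the identifiers are those of rat, the build of the table's coordinates is taken as not given, and neither the authors' test nor strand-aware counting is given.

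Counts were filtered with filterByExpr (minimum count 10), which left 14406 genes, and scaled with TMM factors (1.036 to 1.037 in Fast, 0.987 to 0.988 in Medium, 0.972 to 0.981 in Slow). Tests used edgeR 4.0.16 (quasi-likelihood, R 4.3.3), with all 9 libraries in 1 model of group and Benjamini-Hochberg adjustment over all tested genes (threshold 0.05). The members and the gene lists were chosen with earlier results of these data known. Of each list except the members, up to 4 called genes with the smallest adjusted p per pair of gels were named (fewer for cell markers), with the 8 genes nearest to Plagl1. A gene that this rule names is not reported here. Other named genes were chosen after their values were seen. Alternatives were other scalings, no filter beyond 1 count, DESeq2 1.42.0, limma 3.58.1 on log2(FPKM + 1), only the 6 libraries of a pair, a replicate block and each library left out.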

Additional observations from a re-analysis of the deposited data

How the results depend on the processing

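The log2 difference of Plagl1 kept its direction under all 17 alternatives in each pair of gels. On log2(FPKM + 1) values, a scale that understates the change of low genes, it was 2.45 for Fast minus Slow, 0.49 for Medium minus Slow and 1.96 for Fast minus Medium. The calls of members below are an account of the settings and no test, since the members were chosen with their differences known. The 1 member called lower in Fast than in Slow, Gnas, was not called with upper quartile factors or library size only (0 called lower). The 1 called lower in Fast than in Medium, also Gnas, was called in only 5 of the 17 alternatives. It became 0 with upper quartile factors, library size only, the replicate block, only the 6 libraries of the pair and limma on FPKM. With each library left out it ranged from 0 to 1. Among the members counted as higher, Peg3 was not called for Medium against Slow with limma on FPKM, which left 2 of 3, and Cdkn1c was not called for Fast against Medium without Fast replicate 3. Cdkn1c, not called for Fast against Slow, was called there with library size only, with no filter beyond 1 count, with the replicate block and without Fast replicate 2. Of the other imprinted genes, 2 rather than 4 were called lower in Fast than in Slow when scaled by upper quartile or by library size only. The 2 called lower in Medium than in Slow ranged from 1 to 2 with each library left out, at 1 without Medium replicate 3 or Slow replicate 3. For Fast against Medium, the 5 called higher became 3 with limma on FPKM and ranged from 2 to 7 with each library left out, at 2 without Medium replicate 1 or Medium replicate 3 and at 3 without Fast replicate 2, Fast replicate 3 or Medium replicate 2. The 2 called lower there became 1 with DESeq2 and with limma on FPKM and ranged from 0 to 2 with each library left out, at 0 without Fast replicate 2 or Fast replicate 3. The cause of these changes was not tested.

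Libraries with the same number deviated from their group means with correlations of -0.03 to 0.04, so no pairing was seen. Taken over all tested genes with 3 libraries per group, such a check cannot exclude a pairing. With the replicate block, Plagl1 was at 3.46 for Fast minus Slow, and 6111, 1396 and 4643 of all genes were called in the 3 comparisons, against 6177, 1485 and 4751 without it. Scaling by library size only moved the median of all genes to 0.09 for Fast minus Slow. Depth limits Dlk1, Cdkn1c, Mest and the second Gnas row, where counting error is large.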
